A study of Rattus norvegicus with 18 samples.

Results

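Core spliceosome components are the proteins that build the machine which removes introns, and 48 rat genes of this kind were followed here through chronic ethanol feeding and ethanol withdrawal. They were taken by symbol as a fixed list, from the U1 snRNP to the exon junction complex, and all 48 were found among the 38445 genes of the count tables and among the 17853 genes tested. RNA came from the dorsal hippocampus of 18 adult male Sprague Dawley rats, wild type, with 6 rats in each of 3 groups. Control rats were fed a control liquid diet. Ethanol rats were fed a Lieber-DeCarli liquid diet with 9% ethanol by volume for 15 or 16 days and were not withdrawn. Withdrawal rats were fed the same ethanol diet and were then withdrawn from it for 24 h.

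Introns are cut out by small nuclear ribonucleoproteins (snRNPs), each an RNA with a ring of Sm or LSm proteins and its own specific proteins. The U1 snRNP binds the 5′ splice site and the U2 snRNP binds the branch site, the U4/U6.U5 tri-snRNP then joins, and RNA helicases together with the Prp19 complex rearrange the assembly so that the intron is cut and the exons are joined. The exon junction complex is left on the spliced RNA and carries it toward export and translation. Neurons depend on this machinery for the many alternatively spliced messages of synaptic and channel proteins.

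Between 30873228 and 42679748 counts per rat fell on genes, and every member was counted at least 178 times in every rat. Levels are given as CPM, counts scaled by library size, after TMM normalization, which also corrects for library composition. A gene was called differentially expressed (DE) at q < 0.1 in limma-voom, where q is the p adjusted by Benjamini-Hochberg over all 17853 genes, in one model of the 3 groups with 3 surrogate variables. These variables are unnamed sources of variation estimated from the data. Fold changes and their standard errors (SE) are on the log2 scale of this model. Index sets, the tags that name each library in a pool, were not spread evenly. The control libraries used set 1, the ethanol libraries and those of withdrawal rats 1 and 2 used set 2, and those of withdrawal rats 3 to 6 used set 3, so a difference from control rats and a difference from set 1 cannot be told apart. The neuron, astrocyte, oligodendrocyte and microglia markers were all above 1 CPM in every rat, as the labelled tissue requires. The summed level of choroid plexus markers ran from 29.1 to 5341 CPM within the withdrawal group, and that of hippocampal subfield markers was lowest in withdrawal rat 5 at 226.9 CPM.

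Between withdrawal and control, 9 of the 48 members were DE and all 9 were increased, beside 5.41% of all genes tested (2.85% increased and 2.55% decreased). They were Snrpa, Snrpb, Sf3a2, Puf60, Lsm4, Snrnp200, Dhx38, Alyref and Eif4a3, which come from 8 of the 9 role classes. The changes were small, between 1.09-fold for Dhx38 and 1.28-fold for Snrpa. Fold changes were above 0 for 45 of the 48 members, against 50.1% of all genes, and the median member had a log2 fold change of 0.09 against 0.0003 for all genes. In bulk tissue, a change in the number of cells of a type and a change in RNA per cell cannot be told apart. Of the 9 called members, 8 are among the increased genes that the study listed under a spliceosome term. That list was picked on these same rats and is not independent evidence of their direction.

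The call count rested on the surrogate variables and on single rats. Without surrogate variables 1 member was DE (Snrpa), beside 0.23% of all genes, while 44 of 48 fold changes stayed above 0 with a median of 0.08. No member was called when withdrawal rat 6 was left out (beside 0.129% of all genes), 5 when withdrawal rat 1 (3.12%) or control rat 1 (3.16%) was, 4 when control rat 2 (3.45%), 4 (2.85%) or 6 (2.40%) was, 3 when control rat 3 was (2.51%), and 14 when withdrawal rat 2 was (10.7%). The share of all genes called moved with the count of members. A two-sided exact permutation test on log2 CPM, which uses no surrogate variables, gave an unadjusted p under 0.05 for 18 members, beside 12.8% of all genes.

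**Figure D1:**
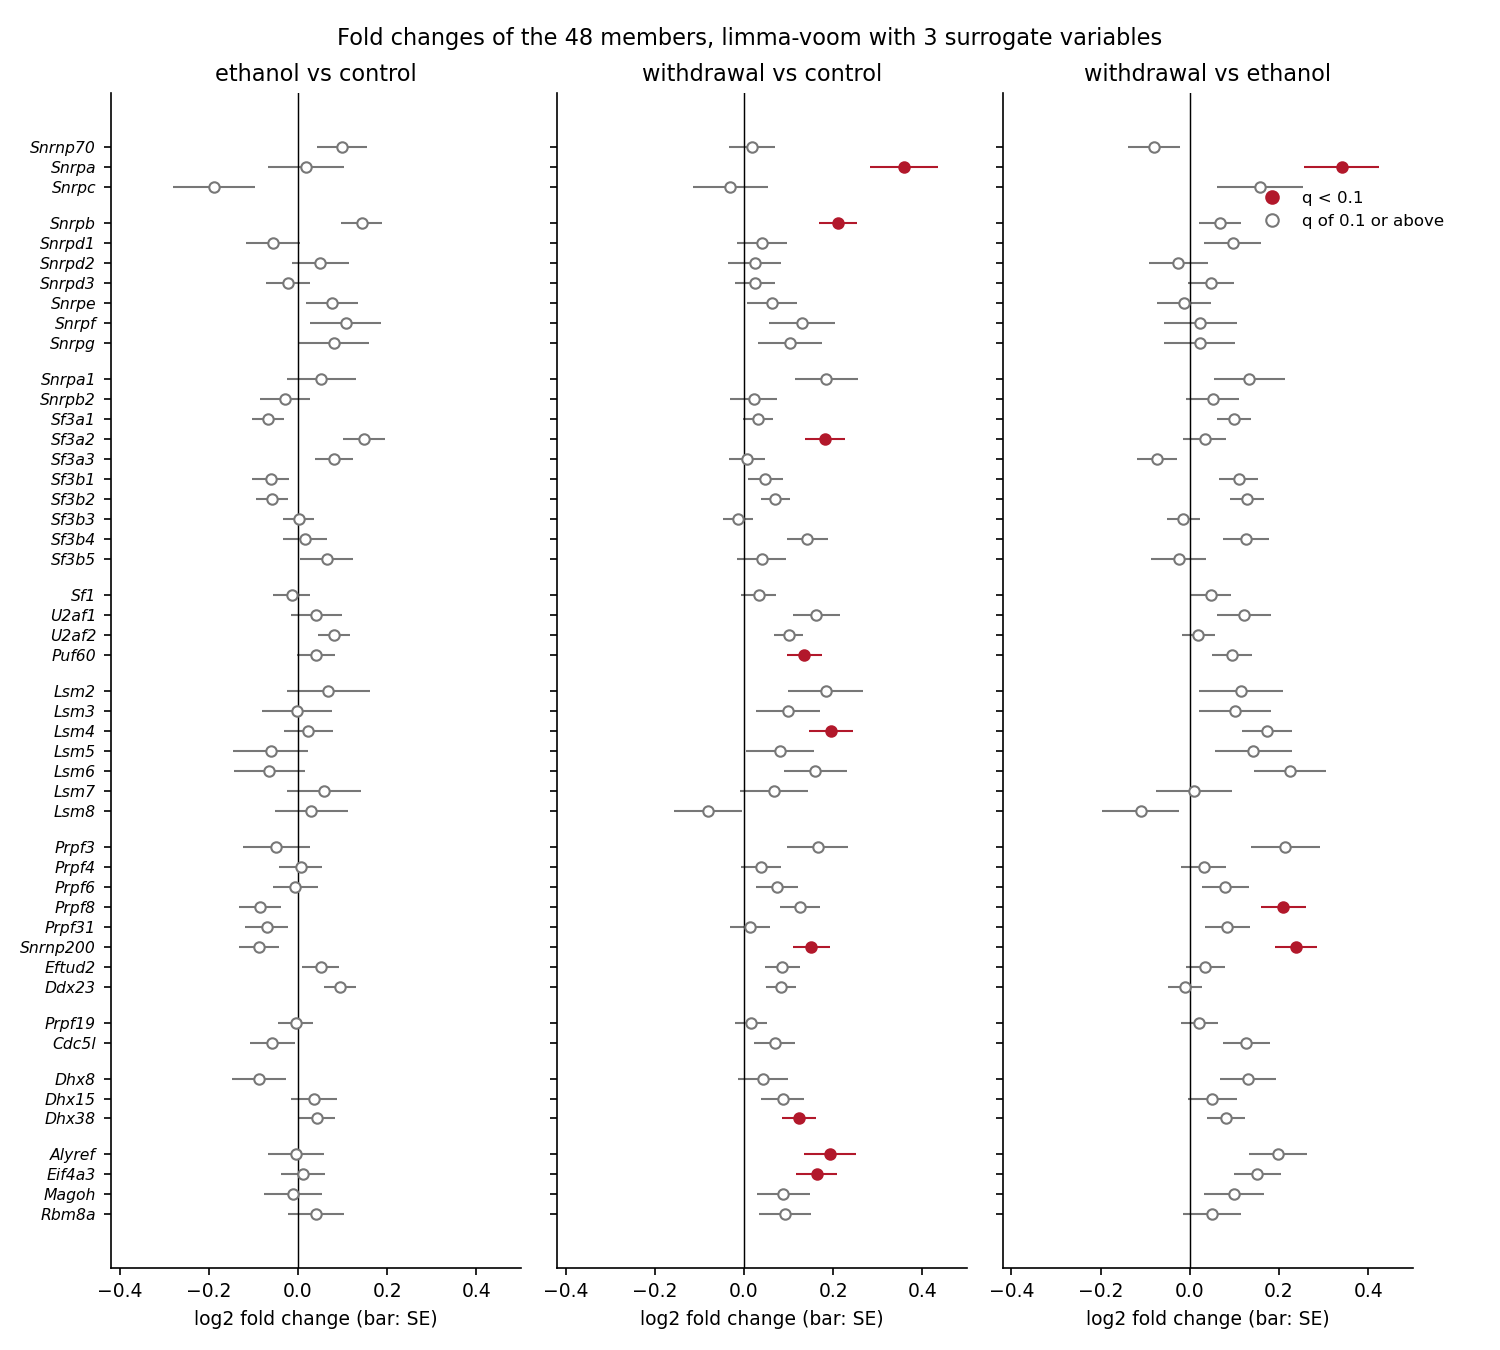
Log2 fold change with its SE for each of the 48 members, grouped by role class from the U1 snRNP at the top to the exon junction and export factors at the bottom, in the 3 comparisons. Filled red points have q < 0.1. In withdrawal against control 45 points lie to the right of 0 and 9 are filled, while in ethanol against control 27 lie to the right and none is filled.

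Snrpa encodes the A protein of the U1 snRNP and had the largest fold change of the 48 members in this comparison (gene 292729, chromosome 1, 83999670 to 84008429 of Rnor_6.0, minus strand). Its level was 11.4, 11.98 and 13.4 CPM (lowest, median and highest) in control rats, 10.8, 12.03 and 12.9 CPM in ethanol rats, and 12.5, 16.0 and 17.5 CPM in withdrawal rats. In 5 of 6 withdrawal rats the level exceeded that of all 12 other rats, and withdrawal rat 2 at 12.5 CPM lay among those. Snrpa was increased by 0.36 on the log2 scale (SE 0.08, q = 0.0259) against control, and it kept q under 0.1 in 17 of the 18 fits that left out a rat, but in 6 of 18 without surrogate variables (q up to 0.187). Snrnp70, a U1 protein that binds the U1 RNA directly, was the most abundant member per kb of exon, and its means of 533.6 ± 41.1 CPM (SD, n = 6) in the control and 542.8 ± 35.8 CPM in the withdrawal group differed by less than their spread. Snrpc, the C protein that helps U1 grip the 5′ splice site, had 8.80 ± 0.958 CPM in control, 7.89 ± 0.462 in ethanol and 8.63 ± 1.09 in withdrawal rats, and its log2 fold change of -0.03 (SE 0.08, q = 0.872) between withdrawal and control did not pass the test. Snrpc has 10 named pseudogenes in the rat annotation, and pairs with more than a single match were left out of the counts and its level is uncertain. In all, 20 of the 48 members have a named pseudogene or a gene named as like them, among them Snrpg (8 pseudogenes), Snrpe (3) and Snrpd2 (3), and their levels are uncertain likewise.

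Among the 7 Sm ring proteins, which form the ring around the RNA of the U1, U2, U4 and U5 snRNPs, 1 was DE and all 7 had fold changes above 0, with a median of 0.06. Snrpb encodes the SmB and SmB′ proteins (gene 171365, chromosome 3, 122696125 to 122703734, minus strand). Its lowest, median and highest levels were 32.3, 34.2 and 36.7 CPM in control, 34.5, 37.5 and 40.3 CPM in ethanol, and 32.8, 39.5 and 42.8 CPM in withdrawal rats. The ethanol rats lay between the other groups at the median, and withdrawal rat 5 was as low as control rats. Snrpb had the smallest q of all members against control (log2 fold change 0.21, SE 0.04, q = 0.0230). Snrpb has 2 named pseudogenes, as does Sf3a2 of the next class. The other 6 ring proteins had log2 fold changes from 0.02 (Snrpd2) to 0.13 (Snrpf), and none passed the test. Snrpn, the neuronal paralog of Snrpb, encodes a nearly identical protein and shares its transcript with Snurf, so its counts are uncertain. It had 3.93 ± 0.653 CPM in control, 3.998 ± 0.567 in ethanol and 3.43 ± 0.195 in withdrawal rats, and withdrawal against control was -0.19 (SE 0.13, q = 0.419).

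The U2 snRNP class holds 10 genes for the proteins that sit on the branch site, and 1 of them, Sf3a2, was DE. Sf3a2 is a subunit of the SF3A complex (gene 299620, chromosome 7, 11777826 to 11784373, minus strand). Its levels were 20.3, 21.9 and 23.4 CPM in control, 20.8, 22.7 and 26.1 CPM in ethanol, and 23.6, 24.5 and 28.2 CPM in withdrawal rats. All 6 withdrawal rats lay above all 6 control rats, with withdrawal rat 1 the highest, and the withdrawal mean was 24.3 CPM without it. This was an increase of 0.18 (log2, SE 0.04, q = 0.0428). Snrpa1, the A′ protein of the U2 snRNP, had a log2 fold change of similar size, 0.19, with a wider error (SE 0.07, q = 0.164). Its means were 20.5 ± 1.08 CPM in control, 20.6 ± 1.18 in ethanol and 23.8 ± 3.08 in withdrawal rats. Sf3b1, the large scaffold that clasps the branch site and the most abundant U2 protein per kb, had means of 509.7 ± 15.8 CPM (control) and 525.8 ± 27.3 CPM (withdrawal), and Sf3b3, at -0.01 (SE 0.03, q = 0.858), had the lowest fold change of the class. The median of the class was 0.04.

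Of the 4 factors that recognise the branch site and the 3′ splice site, Puf60 was DE (gene 84401, chromosome 7, 117129237 to 117140234, minus strand). Puf60 is a poly(U)-binding protein that works with U2AF. Its levels were 113.7, 117.7 and 121.0 CPM in control, 111.4, 119.2 and 137.1 CPM in ethanol, and 125.1, 127.8 and 131.4 CPM in withdrawal rats. There was no overlap of withdrawal with control rats, while the ethanol rats spread over both and ethanol rat 5 was the highest of all 18. The log2 fold change against control was 0.14 (SE 0.04, q = 0.0822), and 11 of the 18 fits that left out a rat lost the call (q up to 0.231). Just outside the threshold were both U2AF subunits, U2af1, which reads the AG at the intron end (0.16, SE 0.05, q = 0.112), and U2af2, which binds the pyrimidine tract before it (0.10, SE 0.03, q = 0.114). U2af1 had 50.2 ± 1.76 CPM in control, 50.2 ± 2.48 in ethanol and 56.8 ± 5.76 in withdrawal rats. Sf1, the branch point binding protein, had the lowest fold change of the 4 at 0.03.

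The LSm ring is the counterpart of the Sm ring on U6 RNA, and 1 of its 7 genes, Lsm4, was DE (gene 290647, chromosome 16, 20506399 to 20511818, minus strand). Lsm4 also serves in the cytoplasmic LSm ring that takes part in mRNA decay. Its levels were 26.5, 27.3 and 28.0 CPM in control, 25.3, 27.5 and 30.6 CPM in ethanol, and 29.4, 31.5 and 32.2 CPM in withdrawal rats. No withdrawal rat overlapped the control rats, whose spread was the smallest of any member (coefficient of variation 1.99%). Its increase was 0.20 on the log2 scale (SE 0.05, q = 0.0504). Lsm8, the subunit that sets the nuclear ring apart, went the other way in the list, with the lowest log2 fold change of all 48 members (-0.08, SE 0.08, q = 0.597). Its levels were 47.1, 59.0 and 73.7 CPM in control, 35.3, 55.7 and 73.9 CPM in ethanol, and 29.3, 57.2 and 66.4 CPM in withdrawal rats, the widest relative spread of any member in control rats (16.5%). The low end of the withdrawal group was rat 5 alone. The other 5 ring genes had fold changes from 0.07 (Lsm7) to 0.18 (Lsm2), and none passed the test.

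The tri-snRNP brings the catalytic RNA, and Snrnp200 was its 1 DE gene of 8 against control (gene 296126, chromosome 3, 119640324 to 119669651, plus strand). Snrnp200 is Brr2, the helicase that unwinds U4 from U6. Its levels were 170.3, 183.9 and 194.2 CPM in control, 158.5, 166.5 and 192.0 CPM in ethanol, and 182.2, 199.5 and 215.8 CPM in withdrawal rats. Withdrawal rats were higher and ethanol rats lower than control rats at the median, with overlap on both sides. The log2 fold change was 0.15 (SE 0.04, q = 0.0701) against control, a call lost in 6 of 18 fits that left out a rat, and -0.09 (SE 0.04, q = 0.448) for ethanol against control. All 8 genes had fold changes above 0 against control, with a median of 0.09. The largest was that of Prpf3, a U4/U6 protein, whose means were 36.4 ± 2.19 CPM in control, 34.2 ± 2.29 in ethanol and 41.2 ± 4.58 in withdrawal rats (0.17, SE 0.07, q = 0.197). The smallest was 0.01 for Prpf31.

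Both Prp19 complex genes and 2 of the 3 DEAH helicases missed the threshold. Cdc5l, a Prp19 complex scaffold, had means of 75.3 ± 4.25 CPM (control) and 79.4 ± 3.81 CPM (withdrawal), a log2 fold change that did not pass the test (0.07, SE 0.05, q = 0.436), and Prpf19, the ubiquitin ligase that names the complex, was at 0.02. Dhx38, the helicase Prp16 that acts between the catalytic steps, was DE (gene 292007, chromosome 19, 42110291 to 42127540, plus strand). Its levels were 34.99, 36.2 and 38.1 CPM in control, 34.1, 36.4 and 39.8 CPM in ethanol, and 38.1, 39.2 and 42.2 CPM in withdrawal rats. The lowest withdrawal rat was just above the highest control rat. Its log2 fold change of 0.12 (SE 0.04, q = 0.0931) was the closest to the threshold of the 9, and 13 of the 18 fits that left out a rat lost the call. Just beyond the threshold was Sf3b4, a U2 protein, at 0.14 (SE 0.05, q = 0.108). Dhx15, which recycles the spent spliceosome, and Dhx8, which releases the spliced RNA, were at 0.09 and 0.04.

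Of the 4 exon junction and export genes, 2 were DE. Alyref is the adaptor that links spliced RNA to the export receptor (gene 690585, chromosome 10, 109768593 to 109774639, minus strand), and its levels were 29.7, 30.3 and 32.7 CPM in control, 29.2, 29.9 and 32.3 CPM in ethanol, and 32.1, 34.2 and 44.2 CPM in withdrawal rats. Withdrawal rat 1 stood far above the rest, and the withdrawal mean was 35.4 CPM with and 33.6 CPM without it. Against control it was increased by 0.19 (log2, SE 0.06, q = 0.0860). The call was lost in 8 of 18 fits that left out a rat, and the increase was 0.13 (q = 0.128) without withdrawal rat 1. Eif4a3 is the helicase that clamps the exon junction complex on RNA (gene 688288, chromosome 10, 108415201 to 108425195, minus strand). It had 52.4, 53.6 and 58.4 CPM in control, 50.1, 51.6 and 63.9 CPM in ethanol, and 52.7, 61.4 and 64.3 CPM in withdrawal rats. Of the withdrawal rats 4 lay above the control rats, and withdrawal rat 5 was at the lower end of them. Its log2 fold change was 0.16 (SE 0.05, q = 0.0746), and 8 of 18 fits that left out a rat lost the call. Its partners Magoh and Rbm8a, which lock the clamp, were both at 0.09 and did not pass the test. In the whole list, 4 members (Sf3a2, Puf60, Lsm4 and Dhx38) had every withdrawal rat above every control rat, beside 0.521% of all genes.

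**Figure D2:**
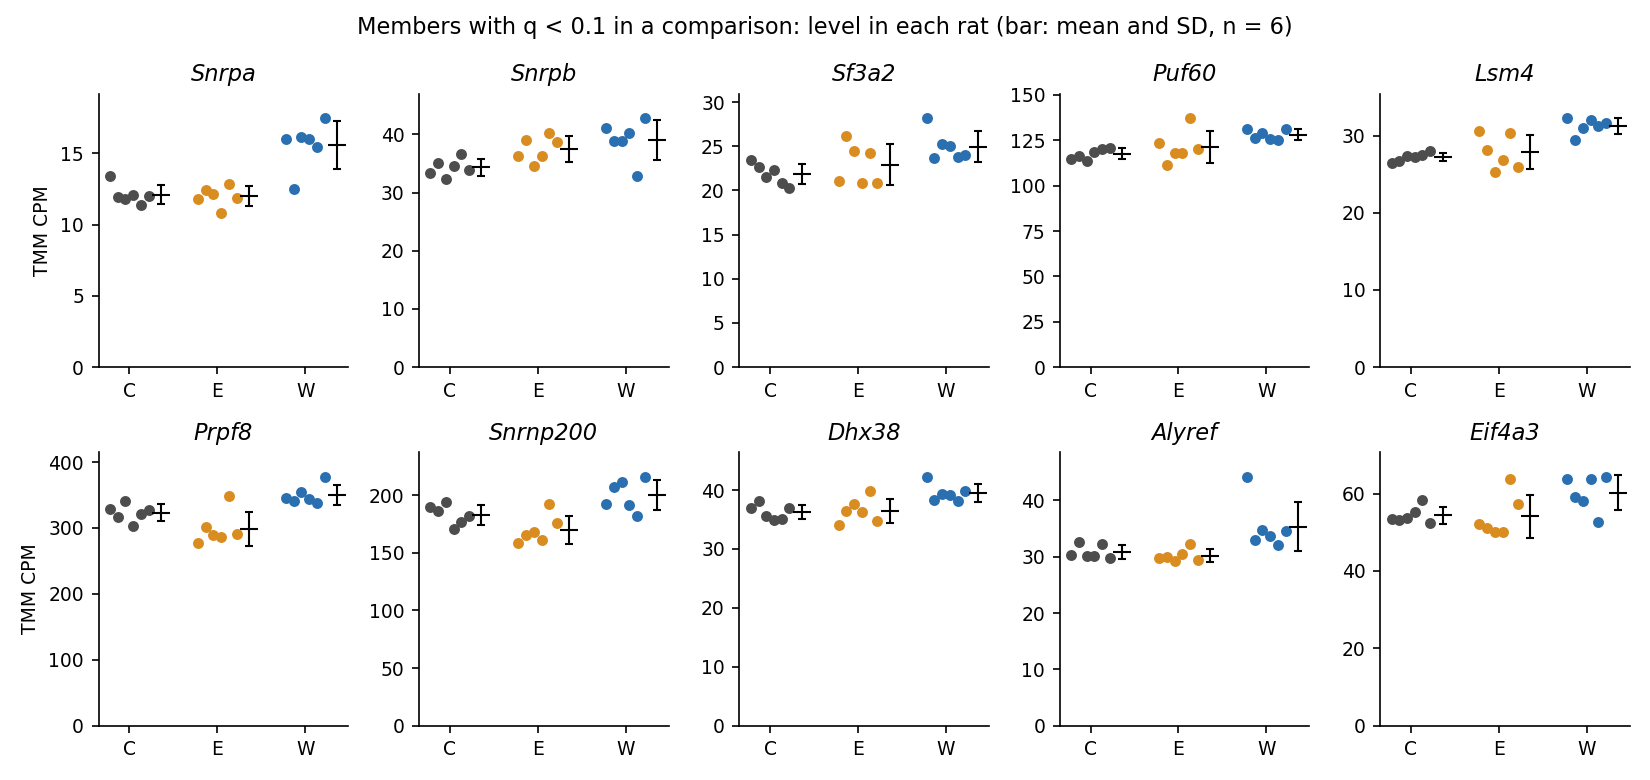
Level in TMM CPM of the 10 members with q < 0.1 in a comparison, in each control (C), ethanol (E) and withdrawal (W) rat, with the mean and SD of each group (n = 6). Sf3a2, Puf60, Lsm4 and Dhx38 show no overlap of withdrawal and control rats, while withdrawal rat 2 of Snrpa and withdrawal rat 1 of Alyref stand apart from their group.

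Promoters are shown for the members with the smallest q, as a description of the sequence at their starts. They are those of the 3 genes with the smallest q between withdrawal and control (Snrpb, Snrpa and Sf3a2) and the 2 tri-snRNP genes called between withdrawal and ethanol (Snrnp200 and Prpf8). Each line gives the 250 bases before the RefSeq start on GRCr8, 5′ to 3′ in the sense of the gene, with CCAAT boxes (CCAAT), GC boxes (GGGCGG) and ETS cores (CCGGAAG) on either strand in capitals.
Snrpb, chr3:137832480-137832729, minus strand: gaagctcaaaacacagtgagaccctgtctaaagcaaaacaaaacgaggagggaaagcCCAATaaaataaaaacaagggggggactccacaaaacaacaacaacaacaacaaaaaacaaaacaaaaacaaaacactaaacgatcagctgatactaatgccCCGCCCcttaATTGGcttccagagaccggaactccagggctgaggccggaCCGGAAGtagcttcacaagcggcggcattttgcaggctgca
Snrpa, chr1:91618043-91618292, minus strand: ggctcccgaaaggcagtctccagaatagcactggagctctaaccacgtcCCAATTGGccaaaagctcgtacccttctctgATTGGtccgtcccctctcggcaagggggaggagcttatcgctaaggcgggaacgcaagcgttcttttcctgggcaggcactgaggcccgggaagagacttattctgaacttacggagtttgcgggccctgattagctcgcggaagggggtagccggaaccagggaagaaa
Sf3a2, chr7:9566206-9566455, minus strand: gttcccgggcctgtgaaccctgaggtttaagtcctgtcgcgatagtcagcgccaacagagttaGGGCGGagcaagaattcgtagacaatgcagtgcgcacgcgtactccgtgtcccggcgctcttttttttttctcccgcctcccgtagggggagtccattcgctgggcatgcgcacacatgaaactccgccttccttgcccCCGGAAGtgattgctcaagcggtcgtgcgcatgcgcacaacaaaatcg
Snrnp200, chr3:134881923-134882172, plus strand: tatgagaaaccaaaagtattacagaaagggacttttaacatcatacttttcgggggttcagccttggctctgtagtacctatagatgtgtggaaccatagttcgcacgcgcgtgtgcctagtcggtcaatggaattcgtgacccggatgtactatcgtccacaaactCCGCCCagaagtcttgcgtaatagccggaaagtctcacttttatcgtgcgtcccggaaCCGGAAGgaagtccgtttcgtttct
Prpf8, chr10:60829528-60829777, plus strand: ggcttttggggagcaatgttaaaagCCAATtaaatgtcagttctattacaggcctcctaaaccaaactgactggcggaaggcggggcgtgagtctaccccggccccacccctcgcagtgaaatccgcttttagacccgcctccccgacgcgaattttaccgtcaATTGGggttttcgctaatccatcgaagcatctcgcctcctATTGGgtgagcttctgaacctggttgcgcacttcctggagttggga
Snrpb, Sf3a2 and Snrnp200 each hold 1 ETS core, the letters bound by ETS family factors, at 41, 48 and 25 bases before the start, all in the sense of the gene. Snrpa and Prpf8 hold none and have 3 CCAAT boxes each, and in Snrpa the matches at 201 and 198 bases before the start overlap on opposite strands. RefSeq promoters were matched for 45 of the 48 members, without Sf3b2, U2af2 and Puf60. The ETS core was found in 12 of these 45 windows (26.7%), in 7.74% of all 27457 promoters of the same length, and in 13.2% of those of tested protein-coding genes. CCAAT was found in 44.4% of member windows, 34.3% of all and 34.9% of those of tested protein-coding genes, and the GC box in 40% and 32.4%, with 55.2% of the windows of tested protein-coding genes holding a GC box. The STAT letters TTCNNNGAA were found in 3 member windows (Prpf4, Prpf31 and Eftud2), or 6.67% against 7.52% of all promoters and 6.01% of those of tested protein-coding genes, and in none of the 9 called members with a promoter, counting Prpf8 from the comparison with ethanol. These counts describe letters in a window and not binding.

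Ethanol feeding without withdrawal called no member in limma-voom, beside 0.493% of all genes. An unadjusted p under 0.05 was reached by 4 members (Sf3a2, Snrpb, Ddx23 and U2af2, all with fold changes above 0), beside 12.5% of all genes, and the smallest q was 0.206 (Sf3a2). No member was called by edgeR either, beside 0.538% of all genes with and 0.347% without surrogate variables. DESeq2 called none as well, beside 2.65% with and 2.41% without them. The exact permutation test gave an unadjusted p under 0.05 for 5 members, beside 13.5% of all genes. Fold changes were above 0 for 27 of the 48 members, against 50.1% of all genes, with a median of 0.01, and for 22 of 48 with a median of -0.01 without surrogate variables. The members did not lie on one side in ethanol rats. Snrpb was at 0.14 (SE 0.05) and Sf3a2 at 0.15 (SE 0.05), while Snrnp200 and Prpf8 were at -0.09 (SE 0.04) and -0.08 (SE 0.05). By class, 5 of the 7 Sm ring genes were above 0 (median 0.08) and 5 of the 8 tri-snRNP genes below it (median -0.03). The 95% interval of the Snrpa change in ethanol rats ran from -0.15 to 0.18, and that in withdrawal rats from 0.21 to 0.51, both against the same control rats.

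Between withdrawal and ethanol, 3 members were DE and increased in withdrawal, beside 2.72% of all genes (1.23% increased). Prpf8 is the large protein at the heart of the spliceosome that holds the catalytic RNA (gene 287530, chromosome 10, 63635239 to 63658360, plus strand). Its levels were 303.2, 323.8 and 341.3 CPM in control, 276.5, 290.1 and 348.8 CPM in ethanol, and 338.0, 344.8 and 377.6 CPM in withdrawal rats. Apart from ethanol rat 5, every ethanol rat lay below every withdrawal rat. Prpf8 was increased by 0.21 (log2, SE 0.05, q = 0.0580). Snrnp200, which works beside Prpf8 in the U5 particle, was called at 0.24 (SE 0.05, q = 0.0335), and Snrpa at 0.34 (SE 0.08, q = 0.0648). Each of the 3 calls was lost in 3 of 18 fits that left out a rat, and the value of Snrpa fell to 0.22 (q = 0.393) without withdrawal rat 6. Sf3b2, an SF3B subunit of the U2 snRNP, was just outside (0.13, SE 0.04, q = 0.104), with 170.3 ± 4.99 CPM in control, 159.8 ± 10.6 in ethanol and 179.0 ± 4.59 in withdrawal rats. Lsm6 (0.22, SE 0.08, q = 0.168) and Prpf3 (0.21, SE 0.08, q = 0.174) had fold changes of like size with wider errors and did not pass the test. For 40 of the 48 members the fold change was above 0, against 49.9% of all genes, and the median was 0.08. The exact permutation test gave an unadjusted p under 0.05 for 18 members, beside 14.3% of all genes.

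These calls also moved with the model and with single rats. No member was called when ethanol rat 2, ethanol rat 3 or withdrawal rat 6 was left out (0% of all genes in each fit), 8 when withdrawal rat 2 was (5.66%), and 11 when ethanol rat 5 was (10.1%). Without ethanol rat 5, 14 of 110 other tested splicing genes were called too, against 1 with all rats. Without surrogate variables 7 members were DE (Snrpa, Prpf8, Snrnp200, Sf3b2, Prpf3, Lsm4 and Alyref), beside 3.48% of all genes. A model with the index set as a term was fitted to the ethanol and withdrawal rats alone, without surrogate variables. Its difference rests on withdrawal rats 1 and 2 against the ethanol rats, and no member and no other gene was called. Withdrawal rats 1 and 2, which shared the index set of the ethanol rats, were higher than the ethanol mean for 43 of the 48 members (median difference in mean log2 CPM 0.09), and withdrawal rats 3 to 6 for 42 members (median 0.10). The first difference rested mostly on rat 1: rat 1 alone was above the ethanol mean for 43 members (median 0.15), and rat 2 alone for 31 (median 0.04), values computed after the data were seen. For Prpf8 these differences were 0.20 and 0.25, for Snrnp200 0.23 and 0.24, and for Snrpa 0.24 and 0.44. In rat 2 alone the difference was 0.19 for Prpf8, 0.29 for Snrnp200 and 0.06 for Snrpa. Shares of all genes were not computed for the counts of 43, 42, 43 and 31 members. A change of the members and a shift of many genes in those rats therefore cannot be told apart here.

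The mean log2 CPM over the 48 members gives a score for each rat, shown here as a description with no test. It ran from 5.38 to 5.48 in control rats (5.43 ± 0.03, SD, n = 6), from 5.36 to 5.52 in ethanol rats (5.42 ± 0.06), and from 5.43 to 5.58 in withdrawal rats (5.52 ± 0.06). Withdrawal rats 1, 3, 4 and 6 lay above every control rat, as did ethanol rat 5, and withdrawal rats 2 and 5 lay within the control range. Withdrawal rat 1 was the highest of the 18 rats for 17 of the 48 members, and for 11.7% of all genes. The score difference between withdrawal and control was 0.09 with and 0.07 without withdrawal rat 1.

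**Figure D3:**
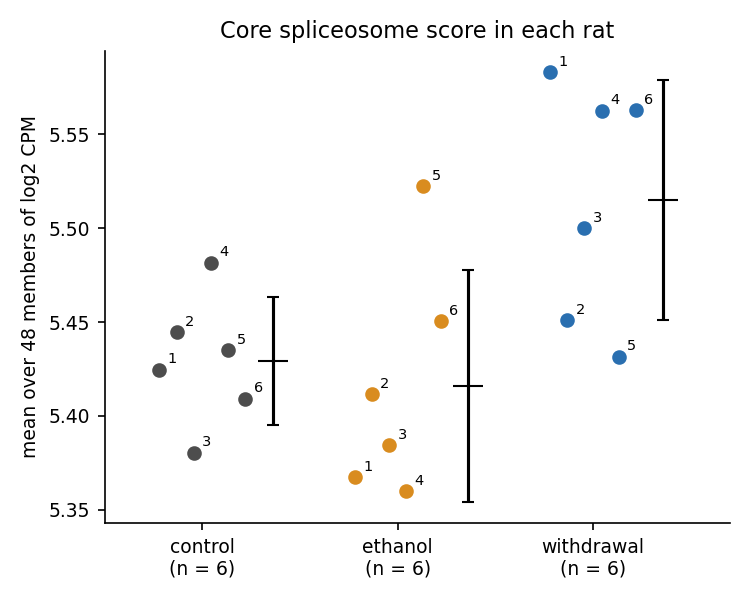
Mean over the 48 members of log2 CPM in each rat, numbered by replicate, with the mean and SD of each group (n = 6). Withdrawal rats 1, 3, 4 and 6 and ethanol rat 5 lie above the highest control rat at 5.48.

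Levels per kb of exon differed widely between members of one particle. In control rats the means ran from 4.05 CPM per kb (Lsm6) to 213.8 CPM per kb (Snrnp70), with a median of 24.6. Lsm6 and Snrpd2, each at an end of a range here, have a gene named as like them (Lsm6l1 and Snrpd2l), so their levels are uncertain. Within the U1 snRNP, Snrpa stood at 9.44 and Snrpc at 7.74 CPM per kb. Within the Sm ring the range was 15.2 (Snrpf) to 61.4 (Snrpd2), within the LSm ring 4.05 (Lsm6) to 75.9 (Lsm8), and within the tri-snRNP 8.33 (Prpf3) to 43.4 (Prpf8). The 4 branch site and 3′ splice site factors were the most alike, from 44.6 (Sf1) to 63.6 CPM per kb (U2af2). Among the called members Snrpa, Sf3a2, Dhx38 (6.76) and Alyref (8.54) were at the low end of the list, and Puf60 (60.2) was at the high end. Relative spread over the 6 control rats had a median coefficient of variation of 5.24%.

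**Figure D4:**
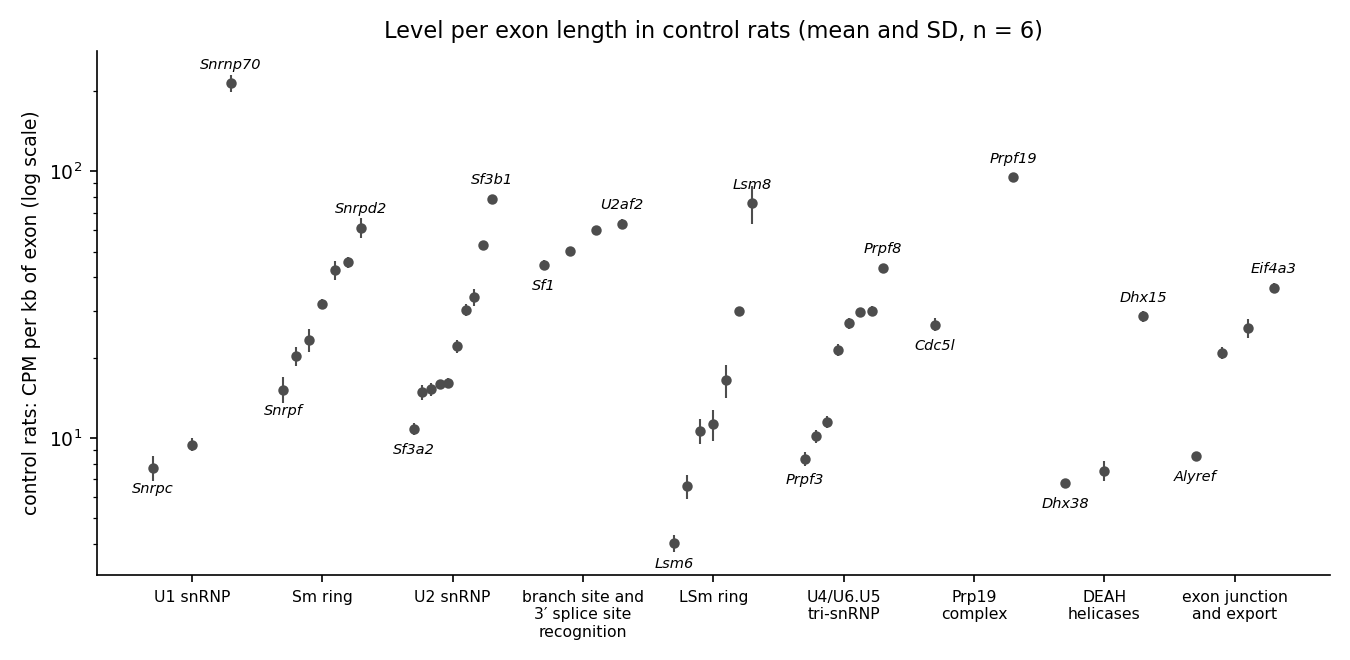
Level of each member in control rats in CPM per kb of exon, on a log scale, by role class (mean and SD, n = 6), with the lowest and highest member of each class named. The LSm ring spans 4.05 to 75.9 CPM per kb and the branch site and 3′ splice site factors 44.6 to 63.6.

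Members were also split by exon length. The median log2 fold change between withdrawal and control was 0.09 for the 13 members under 1 kb of exon, 0.08 for the 20 of 1 to 3 kb and 0.08 for the 15 of 3 kb or more, against 0.03, 0.0005 and -0.003 for all genes of those lengths. For ethanol against control the 3 medians were 0.04, 0.02 and -0.01 for members and 0.05, 0.01 and -0.01 for all genes.

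The other splicing genes were read as a list of their own, chosen with earlier results known. Of 110 further tested genes for spliceosome and related factors, 1 was DE between withdrawal and control, beside 5.41% of all genes. Fold changes were above 0 for 75, against 50.1% of all genes, and the median was 0.03. The count was 10 without withdrawal rat 2 (10.7% of all genes), 6 in DESeq2 with 3 surrogate variables (9.1%) and 5 with 4 surrogate variables (7.63%). The gene called with all rats was Pcbp1, a poly(C)-binding protein that is also among the increased genes the study listed under a spliceosome term, with 133.5 ± 3.41 CPM in control, 132.9 ± 7.32 in ethanol and 154.0 ± 8.88 in withdrawal rats (0.20, SE 0.04, q = 0.0244 against control and 0.19, SE 0.05, q = 0.0650 against ethanol). Next by q were Upf3a, a nonsense-mediated decay factor (0.16, SE 0.05, q = 0.101), and Thoc7, a subunit of the THO export complex (0.17, SE 0.06, q = 0.108). Against ethanol 70 of the 110 had fold changes above 0, beside 49.9% of all genes, and Ddx46, a helicase of the U2 snRNP, was at 0.15 (SE 0.05, q = 0.117). Between ethanol and control edgeR called none, beside 0.538% of all genes with and 0.347% without surrogate variables. In limma-voom none was called with 3 surrogate variables (0.493% of all genes) or without any (0.28%). With 1 surrogate variable limma-voom called 1 (1.45%), with sample quality weights 1 (2.46%), and without control rat 5 also 1 (0.729%). Without ethanol rat 5 and surrogate variables it called 4 (1.8%). DESeq2 called 3 without surrogate variables (2.41%) and none with them (2.65%). With 3 surrogate variables 8 had an unadjusted p under 0.05 in limma-voom, beside 12.5% of all genes. The smallest by q were Txnl4a (0.20, SE 0.06, q = 0.164), Pdcd7 (0.12, SE 0.04, q = 0.255) and Bud31 (0.13, SE 0.05, q = 0.288). The 8 tested genes of the minor spliceosome, which removes a rare class of introns, included none that was DE between withdrawal and control. Of these, 4 had fold changes above 0 (median -0.03). Of the 15 snRNP assembly factors none was DE either, and 10 were above 0 (median 0.04). Beside these stand 5.41% of all genes called and 50.1% above 0, so lists this short would often hold no called gene.

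Markers of other cell types and states differed between the groups too, and their part in the members' changes was not tested. Of 7 markers of the reactive state 6 were increased between withdrawal and control (median log2 fold change 0.64), and their summed level ran from 1014 to 1171 CPM in control, 759.5 to 1352 in ethanol and 874.9 to 1766 in withdrawal rats. Apart from Vim, this list holds genes that the study singled out as increased in these same rats (Gfap, Stat3, Socs3, Timp1, Osmr and Tnfrsf1a). Their rise here is therefore not independent evidence, and they are not all particular to glia. Of 7 endothelial and pericyte markers 3 were increased (median 0.11), with summed levels of 254.8 to 308.8 CPM in control, 262.6 to 333.7 in ethanol and 281.0 to 357.2 in withdrawal rats. All 4 tested red blood cell markers were decreased against control, with medians of -1.53 in withdrawal and -1.60 in ethanol rats, and they summed to 126.5 to 224.4 CPM in control, 36.9 to 96.3 in ethanol and 41.6 to 150.9 in withdrawal rats. Between withdrawal and control 1 of 6 tested hippocampal subfield markers fell (median log2 fold change -0.22), with sums of 597.9 to 819.3 CPM in control and 226.9 to 739.7 CPM in withdrawal rats. Of 7 astrocyte markers 1 rose and 2 fell (median -0.009), with sums of 3837 to 4297 CPM in control and 3357 to 5008 CPM in withdrawal rats. Between withdrawal and ethanol 3 markers of the reactive state, 1 of neurons and 1 of astrocytes were increased and none of the listed markers was decreased. Gfap is in both the astrocyte and the reactive list, so the counts of these lists are not separate. The ethanol group was uneven too. The 6 thalamus markers summed to 287.2 to 784.9 CPM in control, 249.8 to 1469 in ethanol and 242.9 to 578.5 in withdrawal rats, with the highest sum in ethanol rat 1. That rat had the lowest neuron marker sum (5083 CPM) and the lowest level of all rats for 10 of the 48 members, as did control rat 3 for 10 and ethanol rat 4 for 9. Choroid plexus markers summed to 1444 to 5322 CPM in ethanol and 1084 to 2247 CPM in control rats. Without ethanol rat 1, 3 members were called between withdrawal and ethanol, beside 3.11% of all genes. No marker in these lists was at 0 in all rats. Of the 7 neuron markers none was DE between withdrawal and control, and their median was 0.01. The share of counts on mitochondrial genes was 0.849% to 0.953% in control, 0.856% to 0.972% in ethanol and 0.878% to 1.02% in withdrawal rats.

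The number of DE members changed with how many surrogate variables the model held, while the median fold change of the list kept its sign in both comparisons with withdrawal. Between withdrawal and control the counts were 1, 2, 5, 9, 10 and 1 with 0 to 5 variables, and the medians lay between 0.03 and 0.09. The share of all genes called moved with them, at 0.23%, 0.627%, 3.33%, 5.41%, 7.63% and 1.47%. Between withdrawal and ethanol the counts were 7, 12, 3, 3, 5 and 4, beside 3.48%, 8.36%, 1.46%, 2.72%, 5.02% and 4.88% of all genes.

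**Figure D5:**
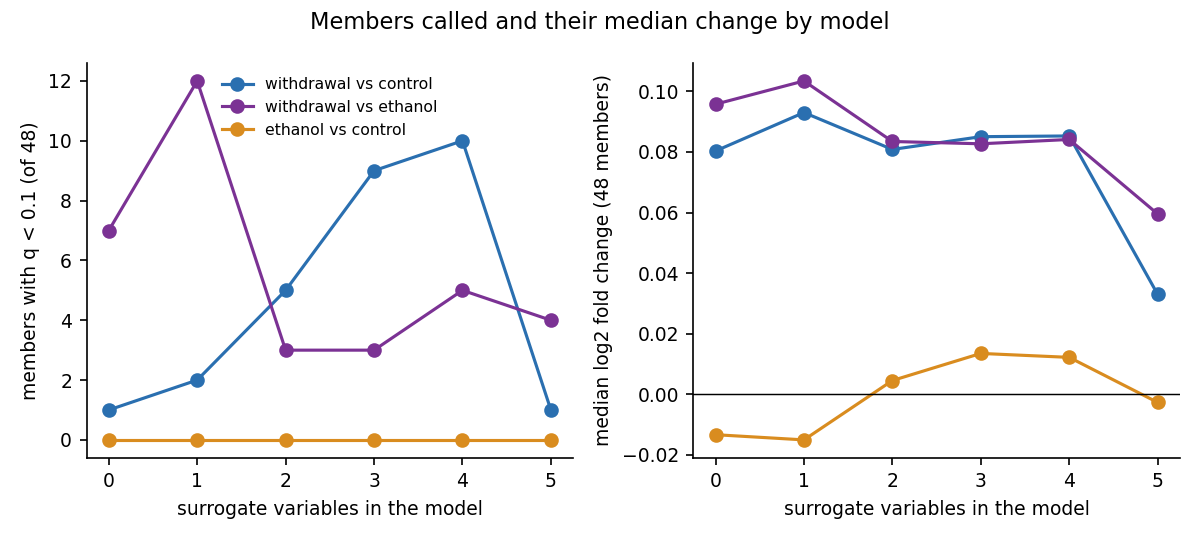
Members with q < 0.1 (left) and median log2 fold change of the 48 members (right) against the number of surrogate variables in the model, for the 3 comparisons. The count between withdrawal and control rises from 1 without surrogate variables to 10 with 4 and is 1 with 5, while that between ethanol and control is 0 throughout.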

How the data were processed

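Values are raw counts per gene that the authors deposited for each of the 18 rats. The authors aligned paired reads of stranded poly(A) libraries with STAR 2.5.2a to Rnor_6.0 and counted read pairs on exons with featureCounts 1.5.0, by strand and without pairs that mapped to several places. Gene identifiers were given symbols from RefSeq tables (GRCr8, for names and promoters only). The labels give each rat its diet group, and replicates are separate rats.

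Genes above 0.5 CPM in at least 1 rat were kept, scaled by TMM (edgeR 4.0.16), given 3 surrogate variables (sva 3.50.0, prior count 2 for log2 CPM) and tested with limma 3.58.1 (voom) in R 4.3.3. The number of variables and of rats in the filter is not given in the sources used here. The exact permutation test runs over 924 splits, and its smallest p is 0.00216. The tests were tried on simulated data. Python 3.11.15, numpy 2.4.6, pandas 2.3.3 and matplotlib 3.10.9 were used for summaries and plots.

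The members, lists, promoter motifs and tests were chosen with earlier results of these data known. Named with values are members with q < 0.1, the largest increase and decrease of each class between withdrawal and control, and up to 3 other splicing genes per comparison with the smallest q, with Snrpn, and 1 gene of this rule is not reported here. Other members are named for the ends of ranges, for a value near the threshold or for their part in a complex, and were chosen after their values were seen. Alternatives were other numbers of surrogate variables, edgeR, DESeq2 1.42.0, weights for sample quality, other filters and scalings, q < 0.05, removal of the exon length trend, index set, replicate block and leaving out each rat. Totals per rat limit precision for low members, down to 178 counts. Coexpression modules, quantitative PCR and human data were not analysed here.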

Additional observations from a re-analysis of the deposited data

Results flagged for a closer look

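The level of 1 rat lay apart from the other 5 of its group for 11 of the 144 member and group pairs, by the gap between that rat and its nearest neighbour relative to the range of the group. Chance flags about 1 in 20 groups. In the control group these were Snrpa at 13.4 CPM in rat 1 (the highest), Snrpd2 at 27.6 CPM in rat 3 (the lowest) and Rbm8a at 44.6 CPM in rat 4 (the highest). In the ethanol group they were Prpf8 at 348.8 CPM and Dhx8 at 44.9 CPM, both the highest and both in rat 5, and Snrpd1 at 37.9 CPM in rat 6 (the highest). In the withdrawal group rat 1 was the highest for Sf3a2 at 28.2 CPM, Sf3b4 at 41.3 CPM and Alyref at 44.2 CPM. Rat 2 was the lowest for Prpf6 at 62.8 CPM, and rat 5 was the lowest for Lsm8 at 29.3 CPM.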

How the results depend on the processing

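Each of the 10 called members kept the sign of its fold change in every alternative. Between withdrawal and control 9 members were called, against 1 without surrogate variables, 2 with 1 variable, 5 with 2 and 1 with 5 (0.23%, 0.627%, 3.33% and 1.47% of all genes), where the median log2 fold change was 0.033. The count was 5 without a filter on low counts (beside 1.66% of all genes), 3 at q < 0.05 (2.07%), and without surrogate variables 3 in DESeq2 (2.44%) and 1 in edgeR (0.185%) or with the exon length trend removed (0.235%). Higher counts came with surrogate variables: 13 in DESeq2 with 3 (9.1%) and 10 with 4 in limma-voom (7.63%). It was also 10 with sample quality weights (6.34%) or with the exon length trend removed and 3 variables (5.63%). Between withdrawal and ethanol 3 were called, against 7 without surrogate variables, 12 with 1 and 5 with 4 (3.48%, 8.36% and 5.02%). The count was 8 in DESeq2 (6.59% of all genes), and without surrogate variables 14 in DESeq2 (8.08%), 8 in edgeR (3.82%) and 10 with the exon length trend removed (3.02%). DESeq2 without surrogate variables also called 16 other splicing genes, against 1 in limma-voom with 3 variables. The count was 7 with sample quality weights (6.01%), 0 with the index set as a term or with only the 2 groups compared (0% of all genes in both), and 1 at q < 0.05 (0.627%). Between ethanol and control the median was -0.044 with the exon length trend removed and no surrogate variables. The cause of these shifts was not tested.

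Leaving out each rat in turn gave 0 to 14 calls between withdrawal and control (beside 0.129% to 10.7% of all genes, median 0.063 to 0.101), 0 to 11 between withdrawal and ethanol (0% to 10.1%, median 0.058 to 0.099) and 0 between ethanol and control (0% to 1.45%, median -0.012 to 0.024). The same without surrogate variables, added after the data were seen, gave 0 to 4 (0% to 1.9%, median 0.068 to 0.097), 1 to 17 (0.23% to 10.9%, median 0.082 to 0.121) and 0 to 2 (0% to 1.8%, median -0.036 to 0.009).

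With the replicate number as a block, 9 members were called between withdrawal and control (5.12% of all genes) and 0 between withdrawal and ethanol (0.0056%), and without surrogate variables 0 in both (0% and 0.0784%). The study states that rats were pair fed, and the labels do not say whether the numbers mark such pairs. Same-numbered rats' deviations correlated between -0.32 and 0.38, 4 of 18 pairs were above 0.1, and 5 of 18 rats correlated best with a rat of their own number. With no record of which rats were paired, these values do not decide it.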
